A study of Mus musculus with 2 samples.

Results

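Calmodulins and calmodulin-like genes were compared between the tooth and the skin of newborn wild-type mice. The genes were Calm2, Calm3, Calm4 and Calml3, and they were taken by gene name from the non-control spots of both arrays. They were 4 of 24323 named genes and were covered by 7 of 33182 named probes, each printed as 1 spot per array. The genes had been chosen with their values on these arrays already known, so their differences between the tissues are given as a description. Calm5 and Calml4 were followed beside them as related genes.

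Total RNA was measured by 1-colour Agilent expression arrays, with 1 array for wild-type tooth and 1 array for wild-type skin. The labels give an age of postnatal day 0 for both tissues. The study's methods name tooth germs and skin taken a day later. Neither source used here states the number of animals behind an array or which area of skin was taken. With 1 array per tissue no test was possible, and no difference below has a replicate check.

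Calmodulin is a small protein with 4 calcium-binding loops called EF-hands. When calcium rises in the cell, calmodulin fills these loops, changes shape and docks onto enzymes such as kinases, the phosphatase calcineurin and calcium pumps. Calmodulin also binds unconventional myosins. Calm2 and Calm3 are separate genes that encode the same protein and are active in nearly every tissue. Calm4, also called Scarf, encodes a calmodulin-like protein of differentiating keratinocytes, and Calm5 encodes its close relative Scarf2. Calml3 encodes a calmodulin-like protein of stratified epithelia that can serve as a light chain of myosin X (Myo10). In epidermis, calcium increases toward the outer layers and drives keratinocytes into terminal differentiation.

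The upstream sequences of the pair Calm4 and Calm5 are shown because they are nearly the same, and that of Calm3 is shown as the contrast from a gene of calmodulin itself. Each is the stretch of 250 bases before the annotated start, on the gene's own strand, from RefSeq on GRCm38.p6. Capitals mark bases that are identical in the alignment of Calm4 with Calm5. Calm4 lies at chr13:3837507-3837756 on the plus strand, Calm5 at chr13:3853923-3854172 on the plus strand, and Calm3 at chr7:16924033-16924282 on the minus strand.
Calm4: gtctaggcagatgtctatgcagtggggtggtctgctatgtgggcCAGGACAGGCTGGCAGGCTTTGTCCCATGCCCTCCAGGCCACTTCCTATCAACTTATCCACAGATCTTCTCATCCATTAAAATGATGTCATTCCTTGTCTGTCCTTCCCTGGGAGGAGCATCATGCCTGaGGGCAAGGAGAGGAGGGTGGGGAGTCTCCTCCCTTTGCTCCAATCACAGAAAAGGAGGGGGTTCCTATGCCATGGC
Calm5: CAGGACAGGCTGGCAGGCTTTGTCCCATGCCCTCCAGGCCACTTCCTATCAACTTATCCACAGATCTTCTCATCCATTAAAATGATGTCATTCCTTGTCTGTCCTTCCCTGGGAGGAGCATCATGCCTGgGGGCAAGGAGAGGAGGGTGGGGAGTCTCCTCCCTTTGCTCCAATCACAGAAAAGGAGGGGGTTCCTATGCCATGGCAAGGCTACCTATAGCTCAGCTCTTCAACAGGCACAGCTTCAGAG
Calm3: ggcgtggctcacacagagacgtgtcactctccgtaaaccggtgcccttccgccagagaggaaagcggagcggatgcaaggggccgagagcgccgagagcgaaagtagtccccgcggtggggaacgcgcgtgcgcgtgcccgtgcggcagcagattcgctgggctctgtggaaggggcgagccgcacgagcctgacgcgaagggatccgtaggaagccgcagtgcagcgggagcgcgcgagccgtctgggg

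Of 256 aligned bases of the Calm4 and Calm5 promoters, counted up to 50 bases past the start, 255 were identical (99.6%), and the longest run without a mismatch was 129 bases. The alignment began at base 45 of the Calm4 stretch and at base 1 of the Calm5 stretch. No other pair among the promoters of Calm3, Calm4, Calm5 and Calml4 shared a run of more than 8 bases. The Calm4 and Calm5 stretches held 0 CpG dinucleotides each, with a GC content of 54.4% and 53.6%. The Calm3 stretch held 33 CpG dinucleotides with a GC content of 69.2%, as against a median of 6 CpG dinucleotides and 52.4% GC over 32851 promoters. Of 5 short motifs searched on both strands, the letters CCAAT occurred in Calm4 and Calm5 and in 33.8% of all promoters. The letters GGAAA, the core bound by NFAT factors, occurred in Calm3 and in 55.6% of all promoters. TGANTCA, the AP-1 site, and TATAAA occurred in none of these 3 stretches and in 6.75% and 12.4% of all promoters. GGGCGG, the GC box, also occurred in none of the 3, and in 32.7% of all promoters. Calm2 and Calml3 had no entry in the promoter table.

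The array also carries part of the calcium-binding structure itself. The second Calml3 probe, at chr13:3803002-3803061 in mm9, has a single forward reading frame without a stop. Its 33 bases in capitals match the pattern searched for an EF-hand loop, the part of the protein that holds calcium. The capitals do not mark a whole loop, since the probe begins inside it. Their last codon, TTT, lies past the loop.
Calml3 probe: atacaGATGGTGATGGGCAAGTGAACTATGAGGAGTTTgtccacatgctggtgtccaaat

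Each level below is a scaled log2 value, the log2 of the processed intensity minus the 75th percentile of the array, which was at an intensity of 428 in tooth and 276 in skin. Each difference is skin minus tooth on that scale. All 7 probes were well above background on both arrays, and none was saturated or called an outlier. Since every probe had 1 spot per array, the error comes from the extraction software, which put it at 10% to 11.8% of the intensity, or 0.20 to 0.22 on the log2 difference. Among other probes printed in 8 spots, spot scatter gave a difference an SD of 0.12 (log2). These errors leave out variation between animals and between RNA preparations.

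Calm4 was the gene with the widest gap between the tissues. Its probe, at chr13:3837682-3837741 (mm9), had an intensity of 570 in tooth and 186109 in skin. The scaled levels were 0.41 in tooth and 9.40 in skin, and they differed by 8.98 ± 0.20 (software error) or 506-fold. Before scaling, the skin spot was 326 times as bright as the tooth spot. The tooth value was itself well above background, so the tooth RNA was not without Calm4 signal. Among 15271 genes well above background on both arrays, the Calm4 difference ranked 17 from the skin end.

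Calml3 was also far higher on the skin array, and its probes gave similar differences at unlike levels. The first probe, at chr13:3802177-3802236 (mm9), went from 696 in tooth to 19493 in skin, with scaled levels of 0.70 and 6.14. The difference was 5.44 ± 0.20, or 43.4-fold. The second probe, whose sequence is shown above, went from 60.2 to 1267, with scaled levels of -2.83 and 2.20 and a difference of 5.03 ± 0.22 (32.6-fold). The differences of the probes lay 0.41 (log2) apart, which is above the software error, while each skin value exceeded the tooth value of its own probe more than 16-fold. Calml3 ranked 114 from the skin end.

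Calm2, one of the genes of calmodulin itself, was bright in both tissues and slightly lower in skin. The probe at chr17:87832770-87832829 (mm9) had an intensity of 33068 in tooth and 17913 in skin, with scaled levels of 6.27 and 6.02. Its difference of -0.25 ± 0.20 was little more than the software error. The probe at chr17:87832973-87833032 had 33958 in tooth and 16683 in skin, with scaled levels of 6.31 and 5.92 and a difference of -0.39 ± 0.20. The differences of the probes lay 0.14 (log2) apart and pointed the same way.

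Calm3 was moderately lower in skin. Its first probe, at chr7:17500734-17500793 (mm9), had 2066 in tooth and 970 in skin, with scaled levels of 2.27 and 1.81 and a difference of -0.46 ± 0.20. Its second probe, at chr7:17502158-17502217, had 6600 and 2562, with scaled levels of 3.95 and 3.21 and a difference of -0.73 ± 0.20, which is 1.66-fold higher in tooth. Both differences exceeded the software error, and they lay 0.27 apart. The size of the second difference depended on the scaling, since with the arrays set on their spike-in spots it was -1.36, past 2-fold in tooth.

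**Figure D1:**
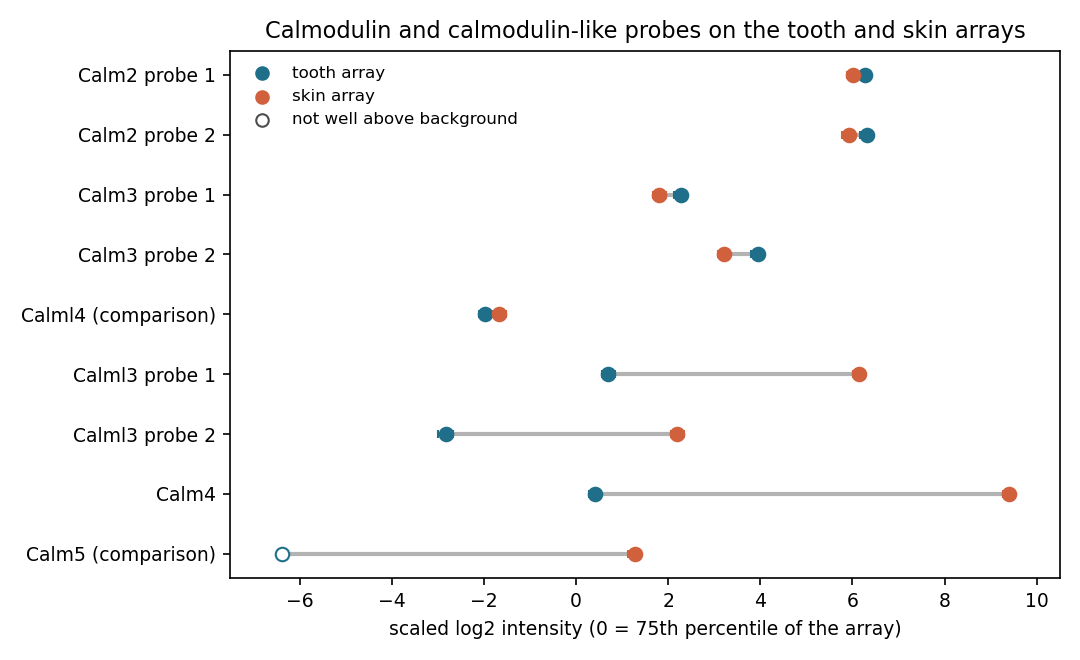
Scaled log2 intensity (x axis, 0 is the 75th percentile of the array) of each probe of Calm2, Calm3, Calm4, Calml3, Calm5 and Calml4 (y axis) on the tooth array (blue) and the skin array (orange), with 1 spot per array. Bars within the points give the software error, and the open point is not well above background. The Calm2 and Calm3 probes sit close together between tissues, whereas Calm4 runs from 0.41 to 9.40 and the Calml3 probes from 0.70 to 6.14 and from -2.83 to 2.20.

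A gene was counted where its probe passed background in tooth, in skin or in both, which gave 17409 genes. In skin 14.2% of them were higher by at least 2-fold, in tooth 15.5%, and 70.4% lay within 2-fold. Higher in skin by at least 16-fold were 3.04% of the genes, and Calm4 and Calml3 were among them. Calm2 and Calm3 lay within 2-fold. The median difference over all these genes was -0.04. Since the genes were chosen with these values known, nothing is read from their counts.

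**Figure D2:**
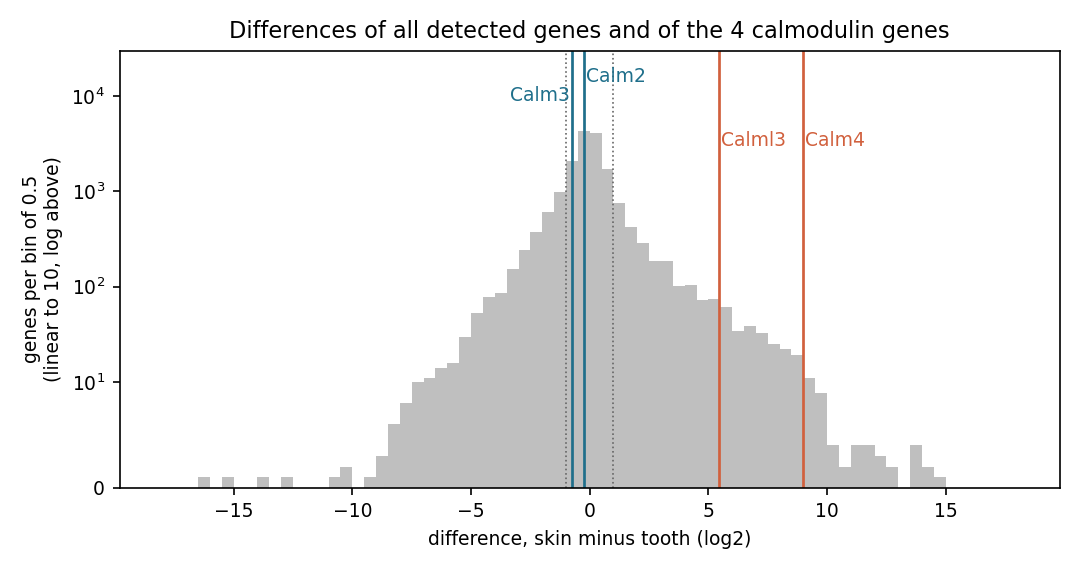
Number of genes (y axis, linear to 10 and logarithmic above) per 0.5 of the skin minus tooth difference in log2 (x axis) for 17409 genes, with values that are dim on 1 array plotted as measured. Lines mark Calm3 at -0.73, Calm2 at -0.25, Calml3 at 5.44 and Calm4 at 8.98, and dotted lines mark 2-fold.

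Calm5 and Calml4 had 1 probe each. Calml4, which encodes a myosin light chain of the gut brush border, had levels of -1.97 and -1.66, and its difference of 0.30 became -0.33 under spike-in scaling. Calm5 was not well above background in tooth and had an intensity of 666 and a scaled level of 1.27 in skin, which made it at least 55.2-fold higher in skin under the main scaling. This bound depended on the processing, since it was 35.6-fold under spike-in scaling, and normexp background correction gave a difference of 3.93, or 15.2-fold. The relatives Calm4 and Calm5, whose upstream sequences are shown above, were both higher on the skin array. The part of the shared upstream sequence in these values was not tested.

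Probes of different family genes shared few bases. The longest shared run was 15 bases, between a Calm2 and a Calm3 probe, followed by 10 bases between the Calm5 probe and the second Calml3 probe. The Calm4 and Calm5 probes shared a run of 6 bases. Binding of a probe to the transcript of another family gene was not tested.

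Calml3, Calm4 and Calm5 are neighbours on chromosome 13. By the probe positions in mm9, the Calml3 probes lay at -34.7 and -35.5 kb and the Calm5 probe at 16.2 kb from the Calm4 probe. Within 250 kb of the Calml3 and Calm4 probes, 14 probes were found, of which 12 carried the names of 9 genes. On the side of Calml3, Gdi2, a regulator of Rab GTPases, differed by 0.04 and the probes of Tasor2 by -0.36 and -0.20. Asb13, an adaptor of ubiquitin ligases, was higher in skin by 1.29, past 2-fold. On the side of Calm5, the probes of Net1, an activator of RhoA, differed by 0.77 and 0.74. Tubal3 and Ucn3 passed background on neither array. The 3 calmodulin-like genes therefore showed wider differences than each measured neighbour in this window. This is a description of 2 arrays and carries no test.

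**Figure D3:**
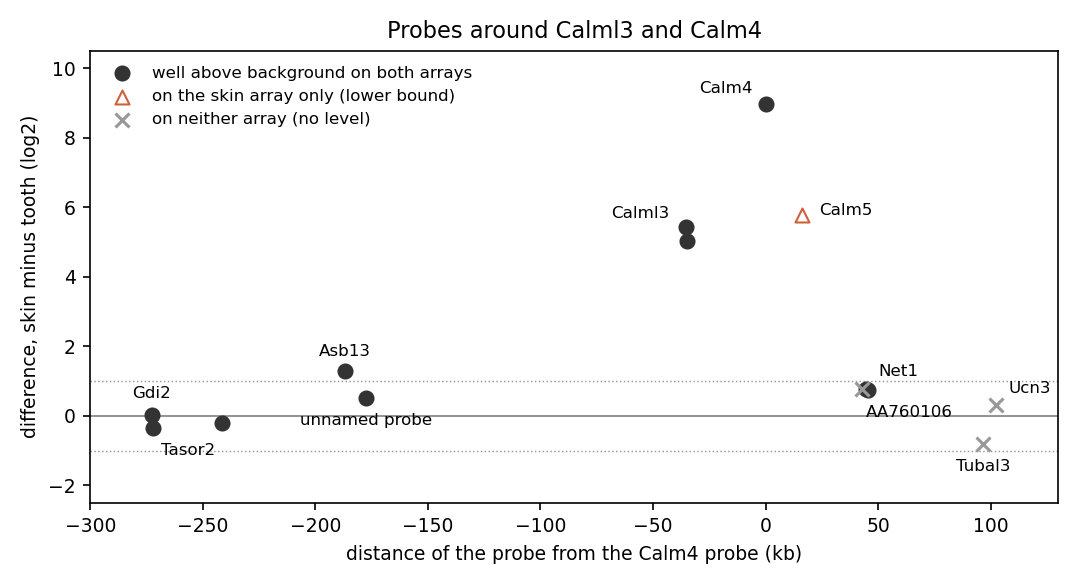
Skin minus tooth difference in log2 (y axis) of the 14 probes around Calml3 and Calm4 against their distance from the Calm4 probe in kb (x axis). Filled points were measured on both arrays, the triangle is the lower bound for Calm5, and crosses were well above background on neither array. Calml3, Calm4 and Calm5 stand above 5, and the measured neighbours lie between -0.36 and 1.29.

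Genes with the nearest differences were listed for the epidermal pair, among 15271 genes and over 2 arrays. Nearest to Calm4 at 8.98 were Cdsn, which encodes corneodesmosin of the cornified layer, at 8.95, Stfa3, a stefin protease inhibitor, at 9.04 and Trex2, a keratinocyte exonuclease, at 9.04. Nearest to Calml3 at 5.44 were Spink5, which encodes the epidermal protease inhibitor LEKTI, at 5.44, Sun1, a nuclear envelope protein, at 5.46 and Krtap6-1, a hair keratin-associated protein, at 5.46. A likeness over 2 arrays is only a like difference.

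Suprabasal epidermal and hair follicle markers were mostly higher in skin, as Calm4 and Calml3 were, while ameloblast and odontoblast markers were higher in tooth. Of 11 suprabasal epidermal markers, 10 were at least 2-fold higher in skin, with a median of 7.61, and the log2 of their summed level was 3.84 in tooth and 12.1 in skin. Loricrin (Lor) differed by 9.11 and keratin 10 (Krt10) by 8.39, and Ivl and Dsc1 were not well above background in tooth. The Tgm3 probes disagreed, as the brighter one differed by 0.10 and the other was not well above background in tooth and at 0.95 in skin. Markers of basal epidermis and dental epithelium were present in both tissues, with Krt5 at 8.82 and 9.76 and Trp63 at 4.31 and 4.48. In that list 2 of 7 were at least 2-fold higher in skin, Krt14 by 1.19 and Krt15 by 4.56. Itgb4 differed by -0.82, and the Itga6 probes disagreed, with -0.20 on the brighter one and -4.39 on the other. The log2 of the summed level of the basal list was 9.34 in tooth and 10.4 in skin. All 5 hair follicle markers were higher in skin (summed level 1.59 and 9.70), with Krt25 not well above background in tooth. All 5 fat markers were higher in skin too (summed level 0.85 and 4.04), with Adipoq, Plin1 and Cidec not well above background in tooth. All 6 ameloblast markers and all 5 odontoblast and bone markers were higher in tooth. Amelx, Ambn, Enam, Amtn and Mmp20 as well as Dspp, Dmp1, Phex and Sp7 were not well above background in skin, so the arrays matched their tissue labels. Of 3 oral epithelial markers, Krt13 was 5.12-fold higher in skin on its brighter probe and differed by 0.44 on the other, and Krt4 and Krt76 were well above background only in tooth. The part of these cell types in the calmodulin values was not tested. In bulk tissue, fewer cells of a type and less RNA per cell cannot be told apart.

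The proteins that calmodulin acts on were followed in 7 lists with 112 genes, of which 111 were on the array and 98 passed background in tooth, in skin or in both. In skin 13 of these 98 genes (13.3%) were higher by at least 2-fold, and in tooth 21 (21.4%), beside 14.2% and 15.5% of all genes. Their median difference was -0.10, beside -0.04 for all genes. Under spike-in scaling, 40 of them were at least 2-fold higher in tooth, beside 32.6% of all genes under that scaling, and the median of all genes moved to -0.67. Thus the direction of a list median near 0 depended on the scaling.

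**Figure D4:**
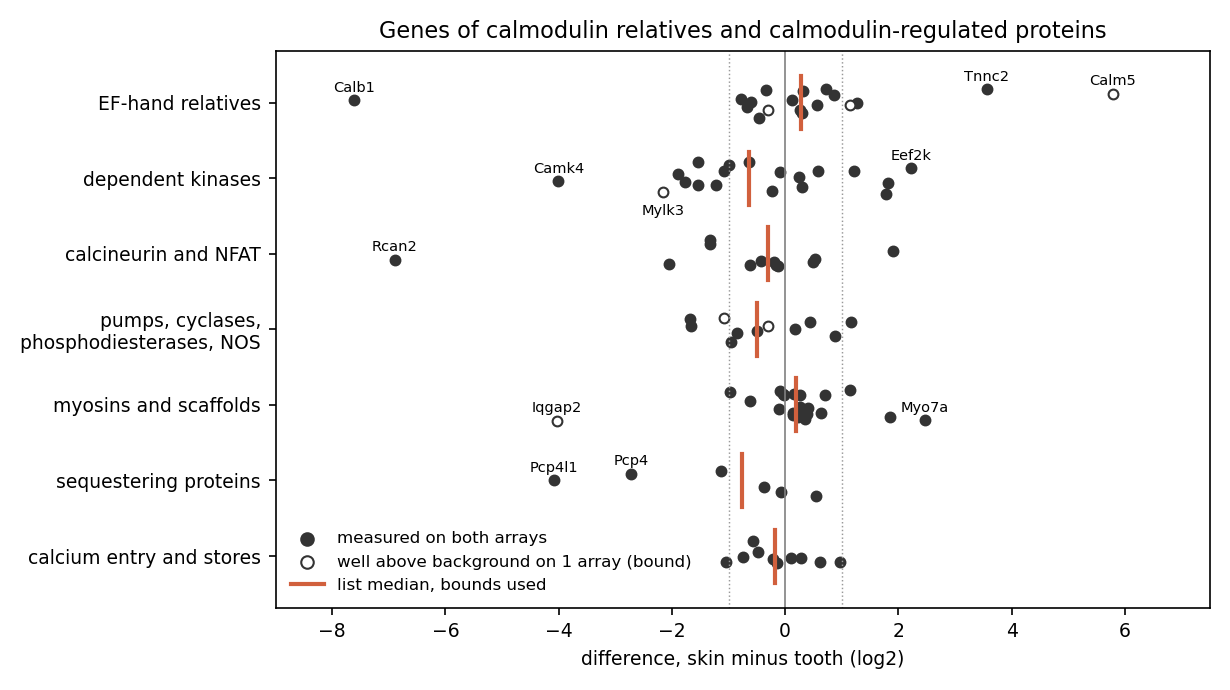
Skin minus tooth difference in log2 (x axis) of the genes in each list (rows). Filled points were measured on both arrays, open points are bounds for genes well above background on 1 array, and the orange line is the list median with bounds in place. Dotted lines mark 2-fold, and Myo5c, which allowed no bound, is left out. Calb1 and Rcan2 stand far to the tooth side, and Calm5 and Tnnc2 to the skin side.

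Among the EF-hand relatives, 4 of 18 genes passed 2-fold on the skin side and 1 on the tooth side, with a median of 0.28 that became -0.35 under spike-in scaling. Calb1, the calcium buffer calbindin, was the gene on the tooth side, with scaled levels of 4.59 in tooth and -3.03 in skin, which differ by -7.62. On the skin side were Calm5, given above, and Cabp5, a calcium-binding protein known from retina, with 5.65 and 6.93 on 1 probe. The other Cabp5 probe was well above background on neither array, so the value rests on 1 of 2 probes that disagree. Troponin C of fast muscle (Tnnc2) had 2.18 and 5.74, a difference of 3.56, and that of slow muscle (Tnnc1) was at least 2.22-fold higher in skin. All 7 skeletal muscle markers were higher in skin as well, with a summed level of 3.15 in tooth and 6.47 in skin (log2) and Myog not well above background in tooth, and their part in the troponin values was not tested. Nearest to 0 were the centrins Cetn1 at 0.12 and Cetn4 at 0.27, which act in centrioles.

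Of 19 genes of calmodulin-dependent kinases and their inhibitors, 4 passed 2-fold on the skin side and 8 on the tooth side, with a median of -0.64. This median ranged with the processing, from -1.27 under spike-in scaling to -0.29 with the mean of all probes. Camk4, a kinase that acts in the nucleus, had 0.96 in tooth and -3.05 in skin, which differ by -4.01. Also higher in tooth were Dapk2 at -1.89, the inhibitors of CaM kinase II Camk2n1 at -1.77 and Camk2n2 at -1.09, and the kinases Camk1g at -1.55, Pnck at -1.54 and Camk1 at -1.22. Mylk3, a myosin light chain kinase of heart, was at least 4.47-fold higher in tooth on its brightest probe, while its other probes passed background on neither array. On the skin side, Eef2k, which slows translation elongation, had -1.23 in tooth and 0.99 in skin and so differed by 2.23, with 2.17 and 2.24 on its other probes. The muscle kinase Mylk2 differed by 1.83, Camk2a by 1.78 and Camk1d by 1.22. A second Camk2a probe gave 0.63. Camk2d at -0.08 and Camk2g at -0.23 were nearest to 0, so the genes of these widely expressed forms of CaM kinase II lay within 2-fold.

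For calcineurin and NFAT, the calcium-activated phosphatase and its transcription factors, 1 of 12 genes passed 2-fold on the skin side and 4 on the tooth side, with a median of -0.30. Rcan2, an inhibitor of calcineurin, had 4.12 in tooth and -2.78 in skin, which differ by -6.90. The related Rcan3 differed by -2.06, Nfatc4 by -1.33 and the catalytic subunit Ppp3cc by -1.33. Nfatc1, known from hair follicle stem cells, had 0.19 in tooth and 2.09 in skin and so differed by 1.91, with 2.07 on its other probe. Nfatc3 at -0.12 and the regulatory subunit Ppp3r1 at -0.16 were nearest to 0.

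Of 11 genes of calcium pumps, adenylyl cyclases, phosphodiesterases and nitric oxide synthases, 1 passed 2-fold on the skin side and 3 on the tooth side. The median was -0.66, or -0.50 with bounds in place. The plasma membrane calcium pump Atp2b1 had 2.25 in tooth and 0.58 in skin and so differed by -1.67, with -1.59 on its other probe. Nos3, the endothelial nitric oxide synthase, also differed by -1.67, and the pump Atp2b3 was at least 2.12-fold higher in tooth. Adcy1, a calmodulin-stimulated cyclase, was higher in skin by 1.17. Nearest to 0 were Atp2b2 at 0.17 and Pde1a at 0.44. A second Pde1a probe pointed the other way, with a level of -2.20 in tooth and a signal not well above background in skin.

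Of 22 genes of calmodulin-binding myosins and scaffolds, 18 lay within 2-fold, and the median of 0.19 became -0.44 under spike-in scaling and -0.061 under a shift to the array median. Myo10, the myosin that Calml3 can bind, had -0.17 in tooth and -0.28 in skin, which differ by -0.11. On the skin side were Myo7a at 2.47, Myo5b at 1.85 and the scaffold Strn at 1.14. Iqgap2, a scaffold at the cell cortex, passed background in tooth alone, where it was higher by at least 16.4-fold. Add1 at -0.03 and Myo6 at -0.03 were nearest to 0. Thus the Calml3 level differed between the arrays where that of Myo10 was nearly equal.

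Of 6 genes of proteins that bind and sequester calmodulin, none passed 2-fold on the skin side and 3 did on the tooth side. The list median was -0.76. Pcp4l1 had 2.45 in tooth and -1.63 in skin, which differ by -4.08. Pcp4, its relative that speeds calcium exchange on calmodulin, had 2.19 and -0.53, a difference of -2.73, and Marcksl1 differed by -1.14. Neurogranin (Nrgn) at -0.07 and Marcks at -0.38 were nearest to 0. Of the 5 neuron and Schwann cell markers, 2 were at least 2-fold higher in tooth and 1 in skin, with summed levels of 4.45 in tooth and 2.40 in skin. Tubb3 was 9.01-fold higher in tooth, and Uchl1 was among those not well above background in skin. The part of these cells in the Pcp4 and Pcp4l1 values was not tested.

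Of 10 genes for calcium entry, stores and sensing in keratinocytes, 9 lay within 2-fold, with a median of -0.18. Prkca, which encodes protein kinase C alpha, had a difference of -1.04, higher in tooth, with -1.71 on its other probe. The store-operated channel gene Orai1 differed by 0.10 and its sensor Stim1 by -0.15. Casr, the extracellular calcium receptor, and the channel gene Trpv3 passed background on neither array.

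The 4 genes kept their direction under all 10 alternative ways of processing, but not all 10 could test it. The treatments of dim probes could not change these values, since every probe of the 4 genes was well above background on both arrays. Keeping outlier spots hardly moved them, as none of these probes was called an outlier. The mean of all probes could not change Calm4, which had no other probe. Spike-in scaling, the shift to the array median and the authors' table each moved all 4 genes by the same amount. They were thus no separate check of each gene. Spike-in scaling and the median shift moved them toward tooth, the direction that Calm2 and Calm3 already had. Calm4 ranged from 8.35 to 9.0 and Calml3 from 4.81 to 5.46. Calm2 ranged from -0.88 to -0.23 and Calm3 from -1.36 to -0.60.

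**Figure D5:**
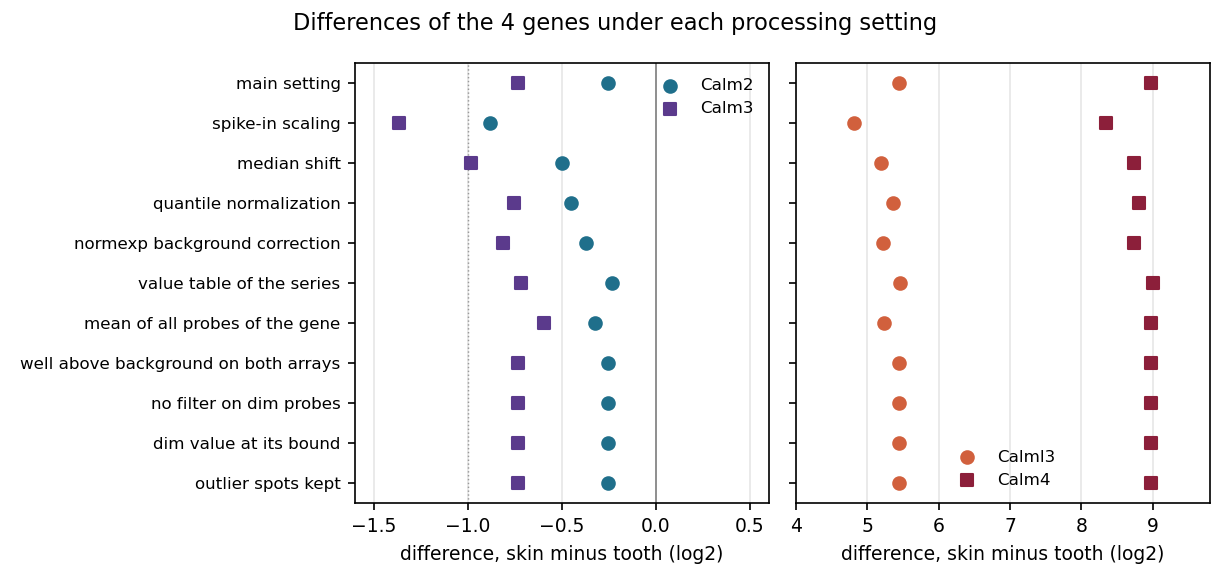
Skin minus tooth difference in log2 (x axis) of Calm2 and Calm3 (left) and of Calml3 and Calm4 (right) under the main setting and 10 alternatives (rows). The solid line marks 0 and the dotted line 2-fold higher in tooth. Calm3 passes the dotted line under spike-in scaling and lies at -0.98 under a shift to the array median.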

How the data were processed

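Per the labels, RNA of 1 tooth and 1 skin sample was labelled with Cy3 and hybridised to 1-colour arrays. The deposited spot values were linear intensities from Agilent Feature Extraction (version 10.7.3.1, from the submitters' processing notes), with background subtracted, trends within the array removed and surrogates for very dim spots. The same output held yes-or-no calls for outliers, saturation and signal well above background. The authors also deposited a table in which each value is the ratio of the processed intensity to 1 factor per array. The study's methods name GeneSpring, a filter on low signal and a percentile shift.

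Here outlier spots were left out (137 in tooth, 146 in skin), repeated spots were averaged as log2 values, and the 75th percentile over 55675 non-control probes of the array was subtracted. A probe was detected when over 50% of its spots were well above background, which held for 56.7% of probes in tooth and 52.5% in skin. The probe with the highest mean of tooth and skin represented its gene. For a gene dim on 1 array, the bright value was set against the higher of the lowest signal called well above background there and the probe's own value. Of 308 negative-control spots, 0 in tooth and 1 in skin were called well above background.

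Names were matched to RefSeq for 82.1% of 33184 named probes. Probe coordinates are mm9, per the file headers, and promoters are GRCm38.p6, so positions of the 2 kinds cannot be compared. Whether a probe lies in an exon, an intron or a UTR was not analysed here. Python 3.11.15, pandas 2.3.3, numpy 2.4.6, Biopython 1.88, matplotlib 3.10.9, R 4.3.3 and limma 3.58.1 were used. The percentile shift, the count of genes past 2-fold and quantile normalization were checked on simulated data. Other steps, such as detection, bounds and the promoter alignment, were not checked in this way. The number of arrays limits the precision.

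The genes and lists were chosen with earlier results of these data known. Named were all probes of the 4 genes, the family genes, list genes past 2-fold, the 2 nearest to 0 per list, bounds of at least 4-fold, named neighbours, and the 3 genes nearest in difference to Calm4 and Calml3. Myo10, Tgm3 and the other genes named from the marker lists were picked after their values were seen. The alternatives were 4 of normalization or background (spike-in spots, array median, quantile, normexp with an offset of 50), the authors' table, the mean of all probes, 3 treatments of dim probes and outliers kept. Individual values of some listed genes are not reported here.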

Additional observations from a re-analysis of the deposited data

Results flagged for a closer look

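An unnamed probe between the Asb13 and Calml3 probes, at chr13:3660020-3660079 (mm9), carries no gene name and so was left out of the counts over named genes. It is one of the probes in the plot around Calml3 and Calm4, with a difference of 0.52, and was well above background on both arrays. Its scaled log2 level was 5.78 in tooth and 6.30 in skin, above the highest negative-control spot of each array at -4.59 and -3.35. The cause was not tested.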

How the results depend on the processing

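Calm2, Calm3, Calm4 and Calml3 kept their direction under all 10 alternatives, while sizes moved mostly with the scaling. Not all 10 could test these genes, since the treatments of dim probes left their values unchanged and keeping outlier spots hardly moved them. Spike-in scaling, the median shift and the authors' table each moved these genes by the same amount, so they were no separate check of each gene. Spike-in scaling gave -0.88 for Calm2, -1.36 for Calm3, 8.35 for Calm4 and 4.81 for Calml3. A shift to the array median gave -0.50, -0.98, 8.73 and 5.19 in that order. Quantile normalization gave -0.45 for Calm2 and 8.81 for Calm4. Normexp background correction gave -0.37 for Calm2, 8.73 for Calm4 and 5.22 for Calml3. The mean of all probes gave -0.60 for Calm3 and 5.23 for Calml3. Calml4 turned to -0.33 under spike-in scaling. The median of the EF-hand relatives turned to -0.35 and that of the myosins and scaffolds to -0.44 under spike-in scaling, and the latter to -0.061 under the median shift. Spike-in scaling also moved the medians of the kinases to -1.27, of the pumps and related enzymes to -1.29, of calcineurin and NFAT to -0.94, of the sequestering proteins to -1.39 and of calcium entry to -0.81. The kinase median was -0.30 under normexp and -0.29 with the mean of all probes. Normexp turned the median of all partner genes to 0.047 and that of all genes to 0.034, and without a filter on dim probes the latter was 0.18. Spike-in scaling moved the partner genes at least 2-fold higher in tooth from 21 to 40, and of all genes 1570 then passed 2-fold on the skin side and 5682 on the tooth side. Normexp gave 1672 genes at least 2-fold higher in tooth and 225 at least 16-fold higher in skin, and 239 were at least 16-fold higher in skin when detection on both arrays was required. The cause of these shifts was not tested. No paired analysis was possible because there was 1 array per tissue. Signal over background limits Calm5, for which only a bound in tooth could be given.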
